A study of Homo sapiens with 14 samples.

Results

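The short circRNAs of HepG2 cells were taken as the circRNAs whose 2 ends lie at most 300 bases apart on the genome, both ends counted. After the 6 deposited tables were joined on chromosome, start and end, 452 of 11227 circRNAs (4.03%) met this rule. Spans from 301 to 1000 bases were held by 1236 circRNAs (11.01%), and 9539 (85.0%) were longer still. The rule used the coordinates only, so reads, callers and fractions were free to vary.

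HepG2 is an established human cell line of liver tumour origin. Per the labels, RNA came from whole cells and from the nucleus, cytoplasm, ribosome, cytosol and exosomes of these cells, all untreated as far as the labels say, with 2 libraries for each source. Ribosomal RNA was depleted everywhere except in the exosomal RNA, and the libraries kept strand. The labels do not say whether the 2 libraries of a source came from separate cultures, so p-values measure only the spread between libraries, which may be technical. Mitochondrial samples were not analysed here. Among hepatocyte marker genes, 4 of 10 (ALB, APOB, FGA and FGG) hosted a circRNA of any span in the tables, and no blood, fibroblast or endothelial marker on the lists used did.

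A circRNA forms when the splicing machinery joins a downstream donor site to an upstream acceptor site, a reaction called back-splicing, which closes the RNA into a ring without free ends. Such rings resist exonucleases and are found mainly in the cytoplasm, while those that retain introns tend to stay in the nucleus. Sequencing reveals a ring only through reads that cross the back-splice junction, and a program (a caller) has to recognise such reads in which the order of the 2 pieces is turned around. Between the donor and the acceptor the ring may hold 1 exon or several, so the genomic span of a ring equals its length only where no intron lies inside. The tables carry no exon structure, and span is used here throughout.

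The acceptor side of a ring can be read directly where its 5′ end falls in a promoter window of the RefSeq table (250 bases before to 50 after a gene's start, GRCh38.p14). This was so for 6 short circRNAs whose host is the gene of the window. The 20 bases before the 5′ end and the first 10 bases inside are shown because an acceptor dinucleotide would stand there. The last 2 bases before the end are in capitals. Counted from the gene start of the window, the ends lay at 0 (RCAN3 and ELF1), 1 (PHF3), 2 (SNAPC1), -96 (TRAK1) and -210 bases (EEF1B2). Whether these ends are acceptor sites in use was not tested.
RCAN3, chr1:24514294-24514323, plus strand: attttctttttttttaacAGtgggtgcctg
ELF1, chr13:40982273-40982302, minus strand: tctgagcttttgttttttAGgccaagaagc
SNAPC1, chr14:61762402-61762431, plus strand: accgctggctagtccgttAGaggcgtgcgg
EEF1B2, chr2:206159665-206159694, plus strand: catcttcgggagccgtggAGgtacgaactt
TRAK1, chr3:42087084-42087113, plus strand: ctctttcaattgtcccatAGattccctata
PHF3, chr6:63646507-63646536, plus strand: ttttttttgtctttctatAGggctgaaaga

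All 6 had AG directly before the end. The same held for 73 of 74 longer circRNAs with a readable 5′ end (98.6%), whereas AG filled 7.26% of all pairs of neighbouring bases in the 35116 windows, read on the gene's strand with overlaps counted, and 99.99% of the windows hold an AG somewhere. The runs before the ends of RCAN3, ELF1 and PHF3 are rich in T, and all 3 were listed by both callers. RCAN3 encodes a regulator of calcineurin, and its circRNA (chr1:24514314-24514567, span 254) was in 5 tables with 14 and 10 reads in the cell libraries, 1 and 2 in the nuclear, 16 and 12 in the cytoplasmic, 12 and 3 in the ribosomal and 6 and 7 in the cytosolic libraries. PHF3, a PHD finger protein, gave a circRNA of span 269 in 4 tables, with 11 reads in each cytoplasm library. The SNAPC1 entry is the shortest entry with a host gene, span 34, and GT, the donor dinucleotide, followed its far end. The EEF1B2 entry of span 249 rested on 1 read in each cytoplasm library and was followed by GC. The far end could be read for 2 of the 6. These letters are descriptions of the windows and were read for 6 of 452 short circRNAs. Whether the callers choose ends by such letters or by known exon ends was not examined. The share with AG is therefore no independent sign of splicing at these ends.

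Short circRNAs made up a small share of the entries of every table, largest in the nucleus. The count was 160 of 5333 circRNAs in the cell table (3%, exact 95% interval 2.56 to 3.49), 232 of 6968 in the cytoplasm (3.33%, 2.92 to 3.78) and 204 of 5105 in the cytosol (3.996%, 3.48 to 4.57). It was 113 of 2899 in the ribosome table (3.90%, 3.22 to 4.67) and 14 of 442 in the exosome table (3.17%, 1.74 to 5.26). The nucleus had 79 of 1302 (6.07%, 4.83 to 7.51), and its interval lay above those of cell, cytoplasm, cytosol and ribosome and overlapped that of the exosomes. The larger nuclear share was not particular to these spans. Spans from 301 to 1000 made up 17.3% of the nuclear entries (15.3 to 19.5), against 10.75% in the cytosol to 12.7% in the ribosome among the other fractions. Intervals are Clopper-Pearson and cover counting error only.

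Most short circRNAs were found in a single table. There were 283 of these (62.6%), and 2 (0.442%) were in all 6 tables, against 52.2% and 1.68% of the longer ones. The 2 present everywhere were hosted by BAZ1A, a subunit of chromatin remodelling complexes, and by TMCC1, a protein of the endoplasmic reticulum. Of the short nuclear circRNAs, 45 of 79 (57.0%, and 19.4% of the short cytoplasmic ones) were also in the cytoplasm table, against 76.3% of the longer nuclear ones. Of the short exosomal circRNAs 5 of 14 (35.7%, and 3.13% of the short cell ones) were also in the cell table, against 85.0% of the longer. Ribosome and cytosol differed little in this respect, with 68 of 113 (60.2%) shared among the short and 61.6% among the longer. These shares are descriptions over entries, with no test.

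Which caller listed a circRNA depended on span. The tables give reads from 2 callers under the headings Ciri and CIRC. Among short circRNAs, 164 (36.3%) were listed by Ciri alone, 154 (34.1%) by CIRC alone, 129 (28.5%) by both in at least 1 table, and 5 by each caller in another table. Among longer circRNAs both callers agreed on 42.2%, and Ciri stood alone for 20.5%. CIRC listed no circRNA with a span below 151 bases, so all 85 entries of 150 bases or less came from Ciri alone, 4 of them of 50 bases or less, 39 from 51 to 100 and 42 from 101 to 150. The median span was 146 bases for Ciri alone (quartiles 94 and 230), 237 for CIRC alone and 245 for both.

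**Figure D1:**
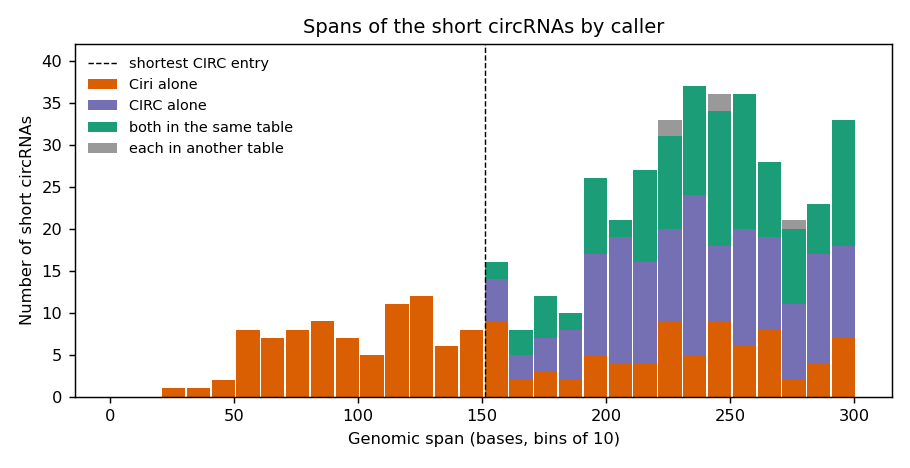
Number of short circRNAs (vertical axis) by genomic span in bins of 10 bases (horizontal axis), stacked by the caller that listed them; the dashed line marks the shortest span of the caller headed CIRC. All 85 entries of up to 150 bases belong to the caller headed Ciri alone, and the 367 from 151 to 300 bases are shared among the callers.

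Table by table, Ciri alone accounted for 26.9% of short and 22.1% of longer entries in the cell, 36.7% and 27.4% in the nuclear, 22.4% and 21.7% in the cytoplasmic, 32.7% and 25.2% in the ribosomal, 43.1% and 22.6% in the cytosol and 78.6% and 21.5% in the exosome tables. The short share was higher in 6 of 6 tables, by 16.7 percentage points on average (exact two-sided sign-flip permutation test over the 6 tables, p = 0.0312, the smallest this design can give). The tables share circRNAs and are not independent units. The gap ran from 0.754 points in the cytoplasm to 57.1 in the exosome table, which had 14 short entries. When only spans of at least 151 bases were kept, an alternative chosen after seeing the data, the difference was 0.840 points, higher in 3 of 6 tables (p = 0.906 by the same exact test). With a limit of 350 bases it was 11.8 points, higher in 5 of 6 tables (p = 0.0625, exact). Where both callers listed a short circRNA in a table, their read numbers were close. The mean log2 ratio of Ciri to CIRC reads differed between short and longer circRNAs by 0.02, higher for the short in 4 of 6 tables (exact sign-flip permutation test, p = 0.562).

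**Figure D2:**
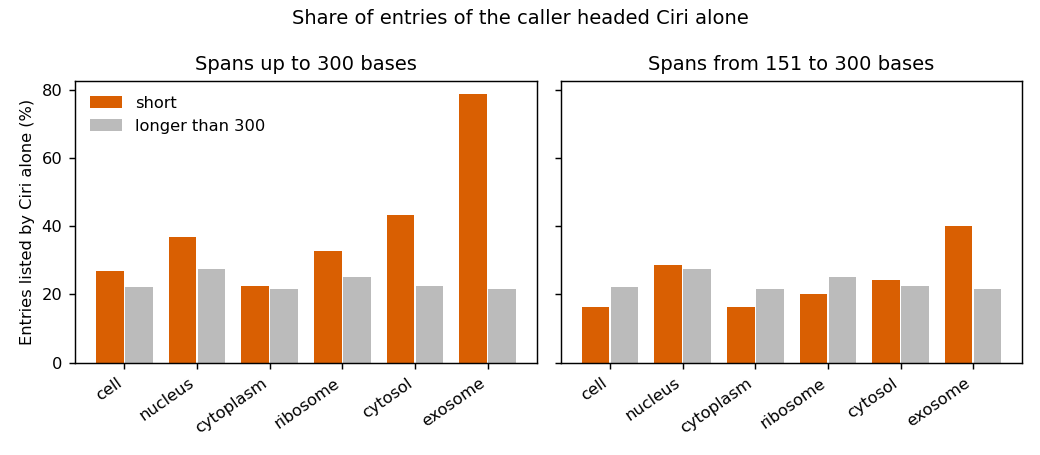
Share of entries listed by the caller headed Ciri alone (percent, vertical axis) in each of the 6 tables, for short circRNAs (orange) and those longer than 300 bases (grey), with all short spans on the left and only spans that both callers list on the right. The orange bar is higher in 6 of 6 tables on the left and in 3 of 6 on the right.

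Spans were multiples of 3 in 181 of the 452 short circRNAs (40.0%, exact 95% interval 35.5 to 44.7) and in 33.2% of longer ones (32.4 to 34.1). Of the 85 spans up to 150 bases, 45 (52.9%) were multiples of 3, while the share was 37.1% from 151 to 300 bases. In bins of 50 bases it was 41.0% from 51 to 100 bases, 64.3% from 101 to 150 and 44.4% from 151 to 200. Among short circRNAs listed by both callers it was 32.6% (24.6 to 41.4), and among those by Ciri alone 45.1% (37.4 to 53.1). Overlapping entries are not independent, and the intervals do not allow for that.

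At the limit itself, 5 circRNAs had a span of exactly 300 and 5 a span of 301. Among those just inside were SCP2, CAMK1/OGG1 and MIDEAS, with mean levels over the 12 libraries of 0.489, 0.126 and 0.0403 RPTM. RPTM is the deposited level, read here as reads per 10000000 reads of the library. Among those just outside were ZFAND4, ARHGEF28 and TRIM66, with 0.230, 0.0642 and 0.0522 RPTM. The shortest entries that both callers listed were hosted by CNOT1 (151), the scaffold of the main deadenylase complex, GRB14 (157), an adaptor that binds the insulin receptor, and GPC3 (162), a cell-surface proteoglycan. The shortest of all were an entry of 24 bases on chromosome 14 with no host gene, SNAPC1 (34) and RGPD2 (44).

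The share of circRNA reads that came from short circRNAs differed several-fold between fractions and rested on very few entries. It was 21.3 and 20.4% in the 2 cell libraries, 4.25 and 4.01% in those of the nucleus, 19.7 and 19.5% in cytoplasm, 4.03 and 5.84% in ribosome, 4.52 and 5.60% in the cytosol and 10.3 and 28.9% in the exosome libraries. Cell and cytoplasm stood apart from nucleus, ribosome and cytosol without overlap, while the 2 exosome libraries lay far apart from each other. An exact permutation test over all 10395 ways to pair the 12 libraries gave p = 0.0735 for a share that depends on the fraction. A caller's entry exists only where both libraries of a fraction had a read. The 2 libraries of a fraction thus share their list of entries, and the test is not free of that pairing. Without the most abundant short circRNA of each fraction the shares were 2.42 ± 0.107% in the cell, 2.86 ± 0.0881% in the cytoplasm, 3.02 ± 0.224% in the ribosome, 3.88 ± 0.216% in the nucleus, 4.58 ± 0.717% in the cytosol and 7.84 ± 3.15% in the exosomes (mean ± SD, n = 2). The same exact permutation test then gave p = 0.000192. The entry removed was picked by fraction, the grouping under test, so this p-value cannot decide whether the share depends on the fraction. With the top entries removed, nucleus against cytoplasm turned from a log2 ratio of -2.25 with all entries to 0.44, and exosome against cell from -0.09 to 1.70. An exact permutation test of 2 libraries against 2 cannot go below p = 0.333, so neither ratio can be called.

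**Figure D3:**
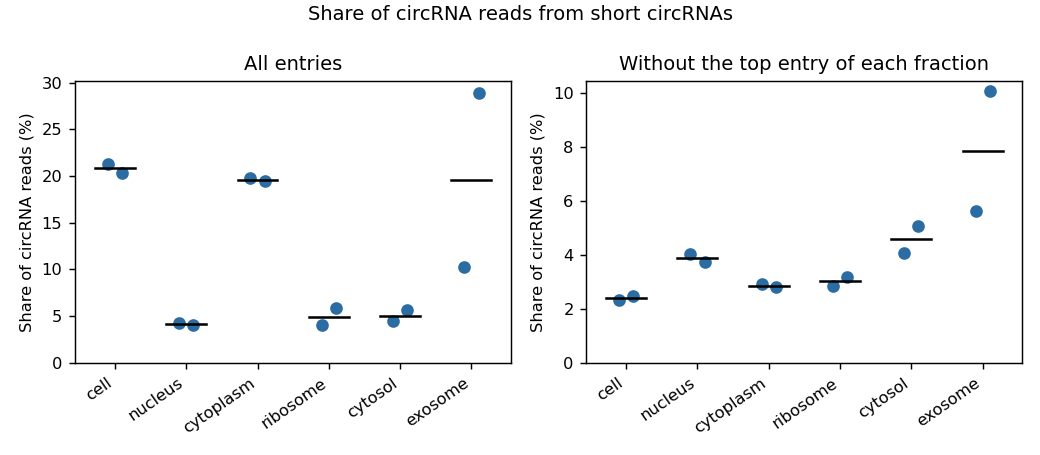
Share of circRNA reads from short circRNAs (percent, vertical axis) in each of the 12 libraries, points for libraries and bars for the mean of a fraction, with all entries on the left and without the most abundant short circRNA of each fraction on the right; the 2 vertical scales differ. Cell and cytoplasm sit near 20% on the left and below 3% on the right.

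That entry was hosted by ALB in cell and cytoplasm. ALB encodes albumin, the main secreted protein of hepatocytes, and the entry (chr4:73418088-73418311, span 224) was listed by Ciri alone. It had 10255 and 7635 reads in the cell libraries and 12554 and 10178 in the cytoplasm, or 1043 ± 73.3 and 1258 ± 61.02 RPTM. It took 90.7% of the short circRNA reads of the cell and 87.9% of those of the cytoplasm, and the other 4 tables did not list it at all. An unlisted circRNA is not a measured 0, because a caller's entry exists only where both libraries of a fraction had a read. In the nucleus the first place was held by an entry without a host gene (chr4:49234408-49234587, span 180) with 17 and 21 reads, which also had 57 and 30 in the ribosome.

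Further abundant entries of Ciri alone were each tied to 1 table. DDX5, an RNA helicase, hosted an entry of span 114 (chr17:64500215-64500328) with 330 and 540 reads in the ribosome libraries, which is 55.2 ± 29.8 RPTM. GRIN2A, a subunit of the NMDA receptor, hosted one of span 130 (chr16:10039992-10040121) with 114 and 483 reads in the exosomes, 66.1% of the short circRNA reads there. It was the higher library of this entry that carried the higher exosomal share. CTTN (cortactin, an actin-binding protein), FN1 (fibronectin) and MATN3 (an extracellular matrix protein) hosted entries of span 111, 136 and 126 in the cytosol alone, with 282 and 323, 285 and 272, and 195 and 219 reads.

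Others spread over several tables. CANX, which encodes the chaperone calnexin, hosted an entry of span 114 (chr5:179719668-179719781) with 112 and 82 reads in the cell, 13 and 23 in the nuclear, 130 and 97 in the cytoplasmic and 90 and 55 in the cytosolic libraries. HSP90B1, a chaperone of the endoplasmic reticulum, had one of span 120 (chr12:103947311-103947430) with 191 and 310 reads in the cytosol and 8 to 29 in the libraries of cell, nucleus and ribosome. The SNAPC1 entry of 34 bases, from a gene for a subunit of the complex that activates small nuclear RNA genes, had 14 and 14 reads in the cell, 32 and 10 in the cytoplasm, 14 and 17 in the ribosome and 23 and 71 in the cytosol.

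Abundance did not keep the entries of Ciri alone from being tied to 1 table. Of 39 with at least 10 reads in both libraries of a fraction, 20 (51.3%) were in 1 table, 11 of them in the cytosol, 4 in the exosomes, 3 in the cytoplasm and 2 in the ribosome. Of 21 such short circRNAs that both callers listed, 2 (9.52%) were in 1 table and 18 (85.7%) in 4 or more. Among longer circRNAs of the same read number the share in 1 table was 21.1% of 322 for Ciri alone and 0.966% of 1035 for both callers. Of short circRNAs listed by CIRC alone, 2 reached this read number, and 0 of these were in 1 table. They were hosted by MYO15B (span 207; 17 and 9 reads in the cell, 5 and 1 in the nucleus, 39 and 23 in the cytoplasm) and PPP1R3E (span 281; 5 and 15 reads in the cell, 23 and 12 in the cytoplasm, 3 and 1 in the ribosome and 3 and 2 in the exosomes).

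**Figure D4:**
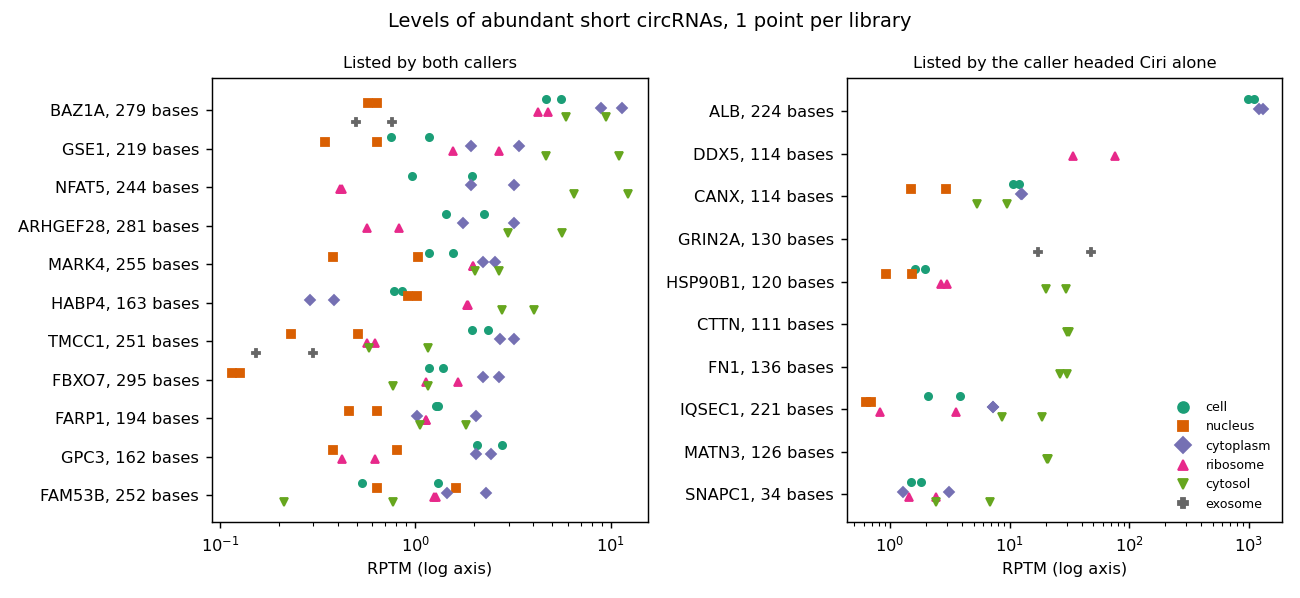
Level in RPTM (horizontal log axis), 1 point per library and a colour and marker per fraction, of 11 abundant short circRNAs listed by both callers (left) and of the 10 most abundant listed by the caller headed Ciri alone that have a host (right); fractions without a point did not list the circRNA. DDX5, GRIN2A, CTTN, FN1 and MATN3 have points from 1 fraction, and BAZ1A and TMCC1 have points from all 6.

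Summed over all short circRNAs, the level was 1151 ± 70.7 RPTM in the cell, 37.3 ± 0.648 in nuclei, 1430 ± 65.6 in cytoplasm, 138 ± 33.8 in ribosomes, 305 ± 20.8 in the cytosol and 51.3 ± 21.4 in the exosomes. Cell and cytoplasm libraries lay between 1101 and 1476 RPTM, and those of the other fractions between 36.1 and 320. The exact permutation test over pairings gave p = 0.000289. The 2 libraries of a fraction share their list of entries, so this test cannot tell a difference between fractions from that shared list. Without the top entry of each fraction the order changed to cytosol (275), cytoplasm (172), cell (108), ribosome (82.9), nucleus (34.96) and exosomes (18.5). The permutation test over pairings then gave p = 9.62e-05, the smallest it can give. The entry removed was again picked by fraction, so no conclusion is drawn from this p-value. RPTM is relative to the reads of a library, so no level per cell was measured in these bulk libraries. More or less of the other RNA in a fraction cannot be told apart from a change in its circRNAs. For the exosomes, whose RNA was not depleted of ribosomal RNA, library preparation cannot be told apart either. CircRNA reads in all numbered 2301 to 72415 per library, lowest in the exosomes, and the library totals implied by RPTM ran from 65621592 to 104135791 reads.

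Entries on the mitochondrial genome were another class found among the short circRNAs. There were 21 of them, against 2 among all longer circRNAs, each listed by Ciri alone. The cytosol held 19, the exosomes 2 and the ribosome 1, and cell, nucleus and cytoplasm had none. In the cytosol they had 242 and 329 reads, or 28.6 ± 4.21 RPTM. ND2, a subunit of respiratory complex I, hosted one of span 94 with 62 and 69 reads. ATP6, a subunit of ATP synthase, hosted 5, the most of any gene, and 2 of these shared a start. ND4, of complex I as well, hosted one of span 61 with 8 and 76 reads. Without the mitochondrial entries the cytosolic share of reads from short circRNAs was 4.61 ± 0.665% in place of 5.06 ± 0.766%.

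Some short entries coincided with genes of small RNAs. SCARNA13, a small Cajal body RNA, had an entry with the same 2 ends as the gene (chr14:95533355-95533629, span 275), with 26 and 19 reads in the cell and 23 and 12 in the cytoplasm. SNORD15B, a small nucleolar RNA inside the ribosomal protein gene RPS3, had one with identical ends as well (chr11:75404421-75404566, span 146). An entry of span 254 lay inside the 330 bases of SCARNA10, and one of 266 bases inside RN7SL2, the RNA of the signal recognition particle. These 4 were listed by Ciri alone. The reverse, a small RNA gene inside the circRNA, was seen for SNORD76 in the GAS5 circRNA and for SNORA64 in 2 entries of RPS2.

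Host genes were found for 439 short circRNAs, protein-coding for 421 (93.1%) and a long non-coding RNA gene for 12. Of 397 hosts, 362 had 1 short circRNA. CNOT1, GPC3, MAST2 and NOP58 had 3 each. The 3 of MAST2, a protein kinase, shared a start and had ends 2 bases apart, with spans 238, 240 and 242, all by CIRC alone. NOP58, a core protein of small nucleolar ribonucleoproteins, had entries of 180, 135 and 126 bases, and the last 2 overlapped. One or both ends were shared with another circRNA for 179 short circRNAs (39.6%), against 36.4% for spans of 301 to 1000 and 60.5% for all longer ones. By caller it was 24.4% for Ciri alone, 45.5% for CIRC alone and 52.7% for both. The middle of the circRNA lay at a median of 36.9% of the host's length for both callers, 46.4% for Ciri alone and 57.8% for CIRC alone, and at 53.99% for spans of 301 to 1000.

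Of 8 host gene lists, genes for secreted liver proteins showed the widest gap between the shares of short and longer circRNAs. They hosted 10 short circRNAs (2.21%, from A2M (whose entry also lies in KLRG1), ALB, APOB, APOH, C3, FGA, FN1 and RBP4) and 0.399% of the longer ones. C3, complement component 3, had an entry of 52 bases with 99 and 30 reads in the cytosol only, and FGA, a fibrinogen chain, had 2 adjoining entries of 92 and 94 bases there. APOH, an apolipoprotein, had an entry listed by both callers (span 177, 3 and 4 reads in the cytoplasm). Genes known for their circRNAs hosted 6 short circRNAs (1.33%, against 2.25% of the longer), chromatin genes 7 (1.55%, 2.16%) and ubiquitin genes 7 (1.55%, 2.57%). RNA-binding and splicing genes hosted 6 (1.33%, 1.44%), protein kinases 8 (1.77%, 1.68%) and translation genes 3 (0.664%, 0.548%). A list of 9 long non-coding RNA genes hosted 1, from GAS5. The lists carry no test.

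The most abundant short circRNA that both callers listed had a mean level over the 12 libraries of 4.77 RPTM, against 383 for ALB, 9.20 for DDX5 and 5.14 to 5.57 for CANX, GRIN2A and HSP90B1 among the entries of Ciri alone. It was BAZ1A (chr14:34862044-34862322, span 279), with 52 and 36 reads in the cell, 5 and 5 in the nuclear, 92 and 89 in the cytoplasmic, 46 and 30 in the ribosomal, 89 and 61 in the cytosolic and 5 and 5 in the exosomal libraries. Its level was highest in the cytoplasm, at 10.1 ± 1.75 RPTM, and next in the cytosol, at 7.64 ± 2.52, whose libraries overlapped with it. TMCC1 (chr3:129880309-129880559, span 251) had 22 and 15 reads in the cell, 28 and 25 in the cytoplasm and 1 to 11 in the libraries of the other fractions. In all, 43 short circRNAs by both callers were in 4 or more tables, and 20 of these (46.5%) had their highest RPTM in the cytoplasm, 10 in the cytosol, 7 in the cell, 4 in the ribosome, 2 in the nucleus and 0 in the exosomes. For 1351 longer ones chosen alike the cytoplasm held 43.8%, the cytosol 34.5% (23.3% of the short), the cell 14.3% (16.3%), the ribosome 5.996% (9.30%), the nucleus 1.41% (4.65%) and the exosomes 0.

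Differences between fractions were tested for circRNAs listed by both callers in at least 1 table, with edgeR's quasi-likelihood test in 1 fit over the 12 libraries. Of 452 short circRNAs 129 met this condition and 24 passed the filter on low counts, among 950 tested of any span. The filter asks for the equivalent of 10 reads, at the median library size, in 2 libraries, so a circRNA that is high in 1 fraction can pass through that fraction alone, and counts among the 24 do not extend to the rest. An unlisted circRNA entered as 0. With TMM scaling a fold change is relative to the remaining circRNAs in the same library, and total RNA plays no part in it. One of the 24 lies on the Y chromosome and is counted but not described.

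Nucleus against cytoplasm asks which circRNAs are kept relatively more in the nucleus. Of the 24, 8 were higher in the nucleus, 5 lower and 11 did not pass (adjusted p under 0.05), where 48.2% of all tested circRNAs were called, 14.9% higher and 33.3% lower. The balance of directions depended on the filter: with no filter 8 of 129 were higher and 16 lower (17.7% of all called), with at least 5 reads in 2 libraries 5 and 12 of 71 (30.6%), and over all entries of either caller 10 and 17 of 63 (60.5%). The median log2 fold change was 0.69 for the 24 and -0.76 for all tested. Scaled to library totals, the median of all tested moved to -3.18, and 2 of the 24 were higher and 15 lower (83.7% of all called, 24 higher and 771 lower of 950). Among circRNAs listed in both tables, 7 of 19 short ones were higher and 1 lower (median 0.94), against 126 and 39 of 528 of any span (median 0.37). The 7 include circRNAs that could pass the filter through the nucleus itself.

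HABP4, an RNA-binding protein, had the highest fold change of those in both tables (chr9:96458379-96458541, span 163). It had 8 and 8 reads in the nucleus and 3 and 3 in the cytoplasm, or 0.968 ± 0.0674 against 0.337 ± 0.0659 RPTM. It was thus higher in the nucleus than in the cytoplasm on both scales. Its log2 fold change among circRNAs was 3.94 ± 0.61 (SE, edgeR adjusted p = 8.49e-06), and it kept its call under all 16 alternatives. The nucleus was not its highest fraction, however. HABP4 had 38 and 29 reads in the cytosol (3.41 ± 0.877 RPTM) and 18 and 13 in the ribosome (1.85 ± 0.0164), and 8 and 6 in the cell (0.816 ± 0.0532). VDAC2, a channel of the outer mitochondrial membrane, had 7 and 8 reads against 5 and 3 (log2 3.46 ± 0.64, edgeR adjusted p = 0.000138). GAS5, a long non-coding RNA that carries small nucleolar RNAs in its introns, had 7 and 8 against 3 and 6 (log2 3.29 ± 0.61, edgeR adjusted p = 0.000123). With library totals as the scale neither passed (edgeR adjusted p = 0.126 for VDAC2 and 0.206 for GAS5). The filter scales with library size, and the nuclear libraries held 4471 and 4227 reads of tested circRNAs, against 28308 and 22909 in the cytoplasm. VDAC2 and GAS5 could thus pass the filter through the nucleus, the fraction in which they were then called higher.

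The others higher in the nucleus rested on less. FAM53B had 14 and 5 reads against 15 and 18 (log2 1.80), and DHX34, a helicase of nonsense-mediated decay, 5 and 8 against 13 and 7 (log2 1.99). Both were lower in the nucleus in RPTM, and with library totals as the scale their log2 fold changes turned to -0.68 and -0.47 and did not pass. PROSER2 had 2 and 3 reads against 3 and 2, and STX17, a SNARE protein of autophagosomes, 3 and 1 against 3 and 1. The calls of PROSER2 and STX17 were lost when any of the 4 libraries was left out (edgeR adjusted p 0.0794 to 0.621). FAM53B lost its call without nucleus replicate 1 (edgeR adjusted p = 0.696) or cytoplasm replicate 1 (0.126), and DHX34 without nucleus replicate 1 (0.0956), nucleus replicate 2 (0.285) or cytoplasm replicate 2 (0.108). GRB14 had 3 and 4 reads in the nucleus and was unlisted in the cytoplasm.

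BAZ1A was the described member that was lower in the nucleus while listed in both tables, with 5 and 5 reads against 92 and 89 (log2 -1.55 ± 0.42, edgeR adjusted p = 0.00488). With DESeq2 its adjusted p was 0.117. SLC15A4 (a lysosomal transporter), NFAT5 (the transcription factor of the osmotic stress response) and ARHGEF28 (a guanine nucleotide exchange factor) were unlisted in the nucleus and had 17 and 20, 33 and 15, and 18 and 25 reads in the cytoplasm. Their calls were lost when an unlisted circRNA entered as 1 read in both libraries, which brought the log2 fold changes to -1.24, -1.59 and -1.46 (edgeR adjusted p = 0.36, 0.325 and 0.252). They were lost as well without nucleus replicate 1 (edgeR adjusted p 0.0545 to 0.0664), where 6 of 46 short circRNAs and 10.5% of all were called.

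Ribosome against cytosol sets the ribosomal fraction beside the cytosolic one. Of the 24, 9 were higher in the ribosome, 4 lower and 11 did not pass, and of all tested circRNAs 52.7% were called, 26.6% higher and 26.1% lower. Here too the filter set the balance, with 18 higher and 25 lower of 129 without a filter (39.2% of all called) and 10 and 19 of 71 with at least 5 reads in 2 libraries (51.9%). The median log2 fold change was 0.47 for the 24 and 0.00 for all. A circRNA unlisted in both fractions, such as TGIF2/TGIF2-RAB5IF, entered with a log2 fold change of 0.00 and counts among those that did not pass. The median of all need therefore not be a measured centre. Scaled to library totals, the median of all was -0.71, and 6 of the 24 were higher and 6 lower, where 134 of all 950 were higher and 382 lower (54.3% called). Among those in both tables it was 0.26 for 18 short and 0.17 for 725 of any span, with 4 short ones higher and 4 lower against 173 and 147 of any span.

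Among those listed in both tables NFAT5 had the largest log2 fold change (chr16:69695136-69695379, span 244), with 4 and 3 reads in the ribosome and 61 and 127 in the cytosol, 0.418 ± 0.00744 against 9.33 ± 4.05 RPTM. It was lower in the ribosome by both scales, its log2 fold change being -3.63 ± 0.55 (edgeR adjusted p = 3.57e-06), and kept its call under all 16 alternatives. ARHGEF28 had 8 and 4 reads against 53 and 31 (log2 -1.65 ± 0.47, edgeR adjusted p = 0.00399). GSE1 had 26 and 11 against 44 and 114 (log2 -1.04, edgeR adjusted p = 0.0396), and without cytosol replicate 2 the adjusted p was 0.567.

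SLC15A4 was higher in the ribosome, with 8 and 11 reads against 4 and 2 (log2 2.74 ± 0.61, edgeR adjusted p = 0.000448; 0.091 without ribosome replicate 2). FAM53B had 12 and 9 against 2 and 8 (log2 2.15), FBXO7, a receptor subunit of a ubiquitin ligase, 16 and 8 against 11 and 8 (log2 1.44), and GAS5 5 and 5 against 4 and 3 (log2 1.60). Their calls did not stand when single libraries were left out. FAM53B lost its call without ribosome replicate 1, ribosome replicate 2 or cytosol replicate 1 (edgeR adjusted p 0.0754 to 0.0947), FBXO7 without ribosome replicate 1, ribosome replicate 2 or cytosol replicate 2 (0.131 to 0.429), and GAS5 without any of the 4 (0.147 to 0.552).

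Another 5 were listed in the ribosome and not in the cytosol. STX17 had 4 and 8 ribosomal reads, GRB14 11 and 7, GPC3 6 and 3, VDAC2 4 and 7 and SRCAP, the ATPase of a chromatin remodelling complex, 3 and 3. The cytosol libraries were deeper in circRNA reads (59472 and 60701) than the ribosome libraries (19649 and 27431). Without ribosome replicate 2, 20 of 43 tested short circRNAs and 45.8% of all were called.

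Exosome against cell sets exosomal circRNAs beside those of whole cells. Only the exosomal RNA was not depleted of ribosomal RNA, so release cannot be told apart from library preparation here. By edgeR, 0 of the 24 were higher in the exosomes (0 also at an unadjusted p under 0.05, and 0 by DESeq2), 9 were lower and 15 did not pass, and of all tested circRNAs 46% were called, 4% higher and 42% lower. Over all entries of either caller, 6 of 63 short circRNAs were higher in the exosomes and 16 lower (41.8% of all called). All 9 were unlisted in the exosomes: SRSF4 (a splicing factor), TEAD1 (a transcription factor of the Hippo pathway), SLC15A4, FARP1 (a guanine nucleotide exchange factor), NFAT5, MARK4 (a kinase of microtubule-associated proteins), FBXO7, ARHGEF28 and GPC3, with 8 to 26 reads per cell library. GPC3 was the highest, with 26 and 16. PROSER2 and GRB14, unlisted in exosomes and cell alike, were among those that did not pass. Of the 3 listed in exosomes and cell, edgeR called 0, also at an unadjusted p under 0.05. BAZ1A had 5 and 5 reads against 52 and 36 and TMCC1 1 and 3 against 22 and 15.

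The exosomal calls hinged on how unlisted circRNAs are entered, on single libraries and on the scaling. With an unlisted circRNA at 1 read in both libraries, edgeR called 0 of 22 short circRNAs and 2.74% of all (1 short one at an unadjusted p under 0.05), and the log2 fold changes of the 9 lay between -1.13 and -0.14. Without exosome replicate 1 it called 0 of 48 and 3.41% of all (10 at an unadjusted p under 0.05), without exosome replicate 2, 1 of 48 and 7.36%, and without cell replicate 1, 16 of 36 and 38.6%. Scaled by all circRNA reads of a library, it called 0 of 24 and 12.9% of all (2 at an unadjusted p under 0.05), and with library totals 22 of 24 and 89.7%. DESeq2 gave 17 of the 24 no adjusted p and called 0 and 6.63% of all (2 at an unadjusted p under 0.05). The exosomal libraries held 2304 and 2301 circRNA reads against 52855 and 41663 in the cell, and their TMM factors were 1.93 and 2.25.

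**Figure D5:**
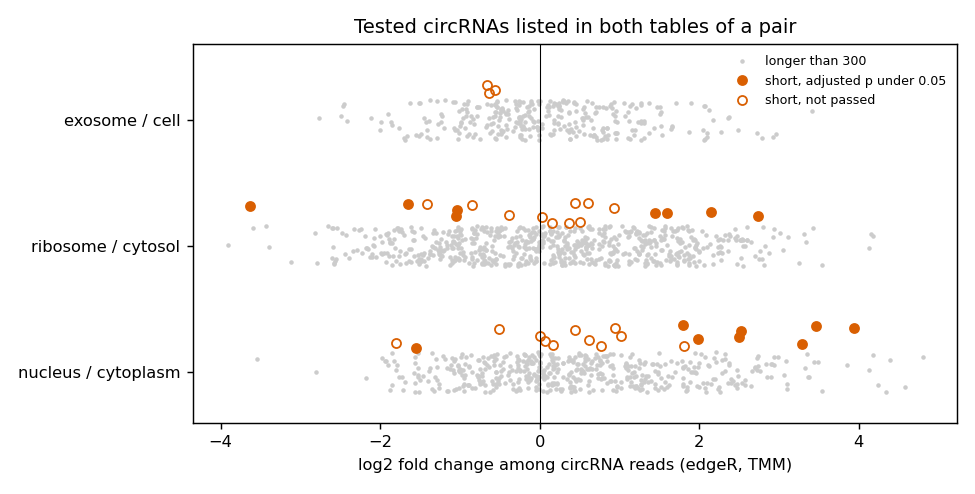
Log2 fold change among circRNA reads (edgeR with TMM, horizontal axis) of tested circRNAs listed in both tables of a pair, for the 3 comparisons; orange circles are short circRNAs, filled where the adjusted p was under 0.05, and grey points are longer ones. Short circles lie mostly right of 0 for nucleus over cytoplasm (7 of 19 higher and 1 lower) and on both sides for ribosome over cytosol (4 and 4 of 18).

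Across the 3 comparisons, 3 of the 24 were called in none, 10 in 1, 8 in 2 and 3 in all. Of all 950 tested, 48.2, 52.7 and 46% were called in the 3 comparisons, and how many were called in several was not counted. The counts for the 24 include calls that were lost when 1 library was left out.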

How the data were processed

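Per the file headers, the authors deposited 6 tables of circRNAs with whole-number counts of junction reads for each of 2 callers (Ciri, CIRC) in 2 libraries, and RPTM, a normalized score per library total. The submitters' processing notes name hg38 as the build. Caller versions are not given in the sources used here. Tables were joined on chromosome, start and end. Reads were the mean over callers with an entry, rounded. RPTM used library totals implied by the deposited values, whose meaning is not stated. Without strand, some hosts may be genes on the opposite strand. Hosts and promoter windows came from RefSeq (GRCh38.p14). The members and lists were chosen with earlier results of these data known.

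Counts were tested with edgeR 4.0.16 (R 4.3.3; filterByExpr with a minimum count of 10, TMM, Benjamini-Hochberg threshold 0.05), with DESeq2 1.42.0 as an alternative. Shares and levels were tested by exact permutation over libraries or tables. The scripts were tested on simulated data. Described circRNAs were the 12 most abundant by both callers, members that passed, the 5 most abundant without both callers, the shortest, those at the limit, those in 6 tables and hosts with 3 or more. Other entries described (among them CTTN, FN1, MATN3, C3 and those of the mitochondria and of small RNA genes) were chosen after their values were seen. Some items at the span limit are not reported here.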

Additional observations from a re-analysis of the deposited data

How the results depend on the processing

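Of 161 values of the main results under alternatives, 113 were counted as unchanged. For counts this meant staying near the main count, without regard to direction or threshold. For tested values it meant keeping direction and side of the threshold. Log2 ratios of 2 libraries against 2 cannot pass the threshold, so for them only the direction could change. The number of short circRNAs was 135 with at least 5 reads per library, 129 by both callers, 298 by Ciri and 288 by CIRC. The share of variance in their read share that lay between fractions passed the test with at least 5 reads (0.846), both callers (0.935), Ciri (0.804), CIRC (0.943) and without the top entry (0.790). The limits given above for this test hold here as well. Log2 ratios of read shares that turned were, for nucleus over cytoplasm, 0.28 with both callers, 0.31 with CIRC and 0.44 without the top entry. For ribosome over cytosol they were 0.0707 at a limit of 350 bases, 0.0210 with at least 5 reads, 0.0260 with both callers, 0.0931 with CIRC and 0.10 without mitochondrial entries (-0.33 to 0.21 leaving out 1 library). For exosome over cell they were 0.10 at 350 bases, 0.30 with at least 5 reads, 0.0310 with Ciri and 1.70 without the top entry (-1.02 to 0.47 leaving out 1 library). The excess of Ciri alone was 11.8 points at 350 bases and 0.840 points from 151 bases on.

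Short circRNAs called in the nucleus, with the share of all tested circRNAs called in brackets, were 24 of 129 with no filter (17.7%), 4 of 24 with DESeq2 (11.2%; 10 without an adjusted p), 7 of 22 with unlisted circRNAs at 1 read (16.5%), 27 of 63 over all entries (60.5%), 7 of 17 with 4 libraries only (43.9%) and 6 to 14 leaving out 1 library. In the ribosome they were 43 of 129 with no filter (39.2%), 29 of 71 with at least 5 reads in 2 libraries (51.9%), 7 of 24 with DESeq2 (27.6%), 37 of 63 over all entries (52.7%) and 13 to 20 leaving out 1 library. In the exosomes they were 2 of 24 with RLE (24.6%), 0 with total reads (12.9%), 22 with library totals (89.7%), 5 of 129 with no filter (7.22%), 0 of 24 with DESeq2 (6.63%), 0 of 22 with unlisted circRNAs at 1 read (2.74%), 22 of 63 over all entries (41.8%), 0 of 2 with 4 libraries only (27.7%) and 0 to 16 leaving out 1 library. The cause was not tested. FAM53B and DHX34 turned in the nucleus under library totals (-0.68 and -0.47), and 121 of 486 fold changes of described circRNAs no longer passed. Deviations from the fraction mean were hardly correlated between libraries of the same replicate number (0.00238, 0.0852 and 0.00168). With so few reads per circRNA this cannot decide whether the libraries were paired, and the labels do not say. The replicate block gave 14, 13 and 10 calls of 24, where 49.2, 52.6 and 47.1% of all tested were called.

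Few junction reads limit the nucleus, where 60.8% of short entries had 3 or fewer reads on average, and the exosomes, where 14 short circRNAs were listed in libraries of 2304 and 2301 circRNA reads. Implied library totals were of the same order in all fractions.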
